A study of Mus musculus with 6 samples.

Results

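The matrix metalloproteinases (MMPs), the ADAMTS proteases with their ADAMTS-like relatives and the tissue inhibitors of metalloproteinases (TIMPs) were described in liver sinusoidal endothelial cells. These cells form the porous wall of the liver's capillaries. Members were the protein-coding rows of the expression table whose symbol belongs to 1 of these families. Mmp8 and Mmp9 were left out because they are neutrophil granule genes. The rule gave 49 of 51165 rows: 21 MMP, 19 ADAMTS, 5 ADAMTS-like and 4 TIMP genes. All libraries came from C57BL/6 mice aged 7 to 8 weeks that had received tamoxifen by intraperitoneal injection, wild type controls included. The first group was wild type, with libraries 1, 3 and 4, and the second carried the genotype labelled NICeCA, with libraries 1, 2 and 3, in which the injection served to activate Notch signalling. What drives the NICeCA allele, and how many animals stand behind a library, the labels do not say. The p-values therefore rest on the variation among 3 libraries a group, part or all of which may be technical.

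MMPs and ADAMTS proteins are zinc-dependent proteases that cut proteins of the extracellular matrix and its proteoglycans. Some MMPs are secreted and others are held in the cell membrane, ADAMTS-like proteins lack the protease domain, and TIMPs bind the active site of the proteases and block it. In the liver these genes are best known for matrix turnover during fibrosis and regeneration and for cleaving von Willebrand factor in blood.

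Total counts ran from 26254649 to 30034191 per library. Endothelial markers were abundant in every library, with a summed level over 7 genes (Cdh5, Pecam1 and Kdr among them) of 8409 to 13338.5 CPM, where CPM is the count scaled to a common library total by TMM. NICeCA 3 was the lowest of these and also held the lowest sum of 8 sinusoidal markers, at 9846 CPM against 13567 to 20538 CPM elsewhere. The sum of 10 neutrophil markers was 143.2 to 2882 CPM in the wild type libraries and 3134 to 16448 CPM in the others, with the maximum in NICeCA 3. Kupffer cell and macrophage markers, 8 in all, summed to 113.5 and 175.8 CPM in wild type 1 and 3 and to 1805 CPM in wild type 4. In NICeCA 1, 2 and 3 they summed to 1340, 948.9 and 159.6 CPM. In such bulk libraries, fewer cells of a type and less RNA per cell cannot be told apart.

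None of the members was called between the genotypes by edgeR's quasi-likelihood test with Benjamini-Hochberg adjustment over all genes at a threshold of 0.05. Of the 49 members, 38 passed the filter on low counts, and 0 of these were called against 0.0455% of all tested genes. At an unadjusted p under 0.05, edgeR gave 7 of 38 (18.4%) where the share over all tested genes was 16.5%. Of these, 3 were higher and 4 lower in NICeCA, beside 9.12% and 7.38% of all tested genes. DESeq2, the second tool, called 3 of the 38 (7.89%) against 5.59% of all tested genes, and all 3 were lower in NICeCA: Mmp24, Mmp28 and Adamtsl2. Over all tested genes DESeq2 called 3.7% higher and 1.89% lower. The groups did not overlap in 8 tested members (21.1%) where the share over all tested genes was 23.4%. Of the 38, 6 were higher without overlap, beside 11.6% of all tested genes, and 2 were lower, beside 11.8%. Counted over both directions, the members' shares by unadjusted p, DESeq2 and non-overlap stood near the background. By direction they did not all do so, since the 3 DESeq2 calls were all lower and the members without overlap were 6 higher and 2 lower. These members are too few to read a direction from. Their log2 fold changes, NICeCA over wild type, were positive in 20 and negative in 18, with a median of 0.04 beside -0.01 over all tested genes.

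**Figure D1:**
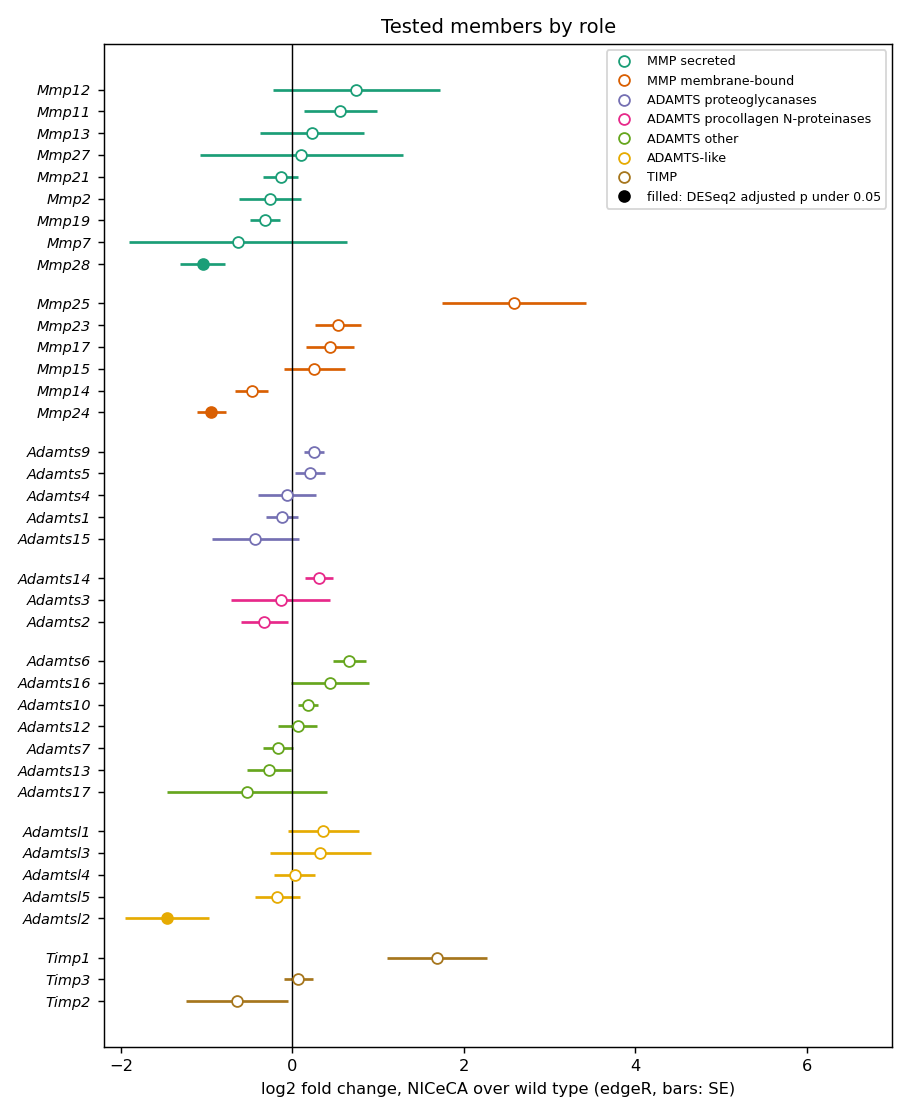
The log2 fold change of NICeCA over wild type is plotted for the 38 tested members, ordered by role, with bars for the standard error of the edgeR fit. Filled points mark Mmp24, Mmp28 and Adamtsl2, the members DESeq2 called, and the other points are open.

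The promoters of these 3 members are shown because they were the only members that either tool called. Sequences are RefSeq's for assembly GRCm38.p6, from 250 bases before to 50 bases after the start site, printed 5′ to 3′ on the gene's strand. Capitals mark TGGGAA, the core of the site bound by RBPJ, the DNA-binding partner of active Notch. It was searched on both strands, the other strand reading TTCCCA.
Adamtsl2, chr2:27079129-27079428, plus strand: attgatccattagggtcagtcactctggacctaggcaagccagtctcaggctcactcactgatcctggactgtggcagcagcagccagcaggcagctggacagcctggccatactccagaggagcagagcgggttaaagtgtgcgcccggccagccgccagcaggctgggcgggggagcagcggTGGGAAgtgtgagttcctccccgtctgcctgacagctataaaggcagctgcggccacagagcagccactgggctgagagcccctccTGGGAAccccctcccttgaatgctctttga
Mmp28, chr11:83462991-83463290, minus strand: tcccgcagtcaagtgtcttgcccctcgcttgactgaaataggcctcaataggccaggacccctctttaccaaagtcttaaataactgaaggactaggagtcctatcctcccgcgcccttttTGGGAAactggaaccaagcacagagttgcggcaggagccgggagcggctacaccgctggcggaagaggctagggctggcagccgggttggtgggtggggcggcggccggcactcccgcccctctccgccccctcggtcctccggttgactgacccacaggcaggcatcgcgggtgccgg
Mmp24, chr2:155775092-155775391, plus strand: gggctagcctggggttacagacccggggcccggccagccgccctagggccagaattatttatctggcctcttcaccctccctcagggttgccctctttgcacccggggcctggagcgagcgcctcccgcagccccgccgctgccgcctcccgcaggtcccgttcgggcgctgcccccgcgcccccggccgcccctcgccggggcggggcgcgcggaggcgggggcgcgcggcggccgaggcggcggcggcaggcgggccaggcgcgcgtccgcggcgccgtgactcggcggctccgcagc
The Adamtsl2 window held 2 matches, the first 66 bases before the start site, and the Mmp28 window held 1, starting 129 bases before it. The Mmp24 window, with 80.0% G and C, held 0. Windows were at hand for 35 members, and TGGGAA or its complement stood in 13 of their 38 windows (34.2%) where 25.6% of all 32851 windows held it. A match of 6 letters is a description of the window and not a binding site.

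Level per length was set by few members. In RPKM, the deposited count scaled by gene length and library total, Timp3 stood at 322 ± 15.0 in wild type and 359 ± 52.9 in NICeCA (SD, n = 3 libraries each). Adamts1 stood at 341 ± 52.7 and 334 ± 30.2 RPKM, which does not separate it from Timp3 beyond the spread. Together these 2 genes made up between 65.9% and 78.0% of the summed RPKM of all members in a library. Mmp14 followed with 112 ± 22.8 and 84.9 ± 15.7 RPKM and Timp2 with 47.0 ± 39.8 and 31.7 ± 16.2 RPKM. Only 3 more members averaged at least 10 RPKM over the libraries, namely Adamts10, Adamts7 and Adamts4. In wild type their libraries overlapped, while in NICeCA all libraries of Adamts10, at 21.1 ± 2.44 RPKM, lay above those of Adamts4, at 15.0 ± 1.53 RPKM. A further 18 members averaged between 1 and 10 RPKM and 24 averaged under 1.

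**Figure D2:**
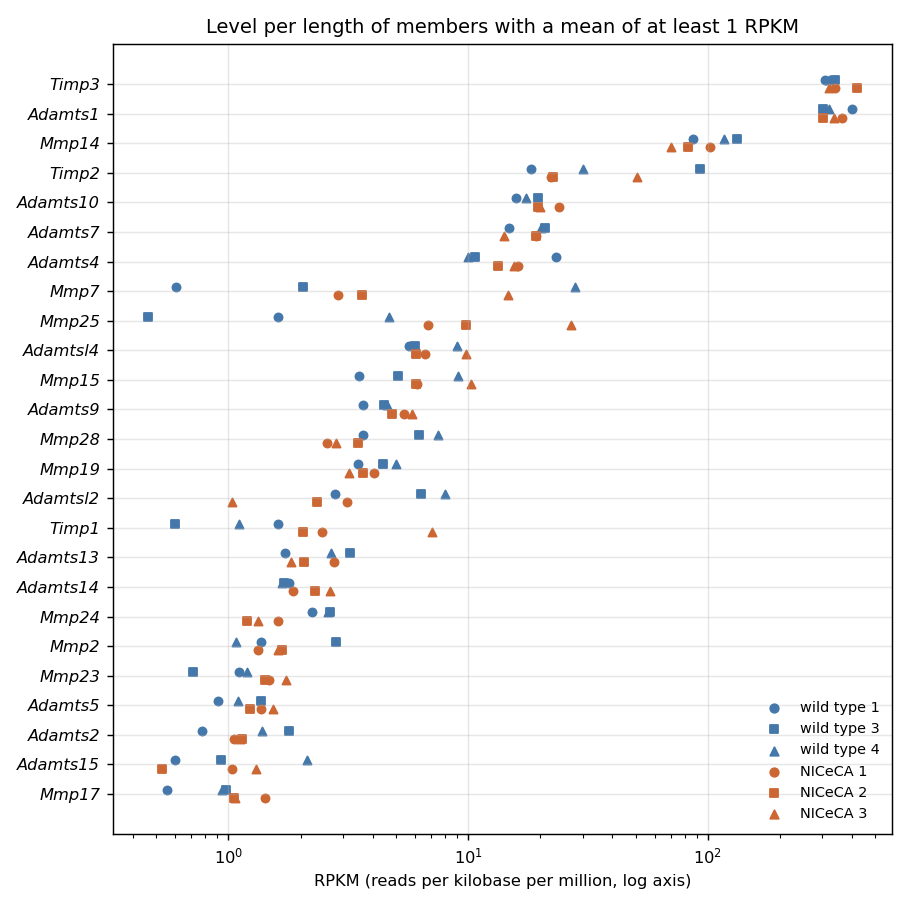
RPKM on a log axis is plotted for the 25 members with a mean of at least 1 RPKM, with 1 point per library, blue for wild type and orange for NICeCA. Timp3 and Adamts1 lie above all other members in every library, while Mmp7 and Mmp25 spread most widely.

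Of the 11 members that did not pass the filter, Mmp1a, Mmp1b, Mmp10, Mmp20 and Adamts20 were listed at 0 in every library. A count of 0 allows up to 3 counts, or 0.114 CPM in the smallest library, for counting error only. The other 6, Mmp3, Mmp16, Adamts8, Adamts18, Adamts19 and Timp4, had at most 23 counts in any library. Adamts8, a secreted protease of proteoglycans, had 2 counts in each wild type library and 1, 23 and 14 in NICeCA 1, 2 and 3. The genes for collagenases, stromelysins, matrilysin and enamelysin lie in a cluster on chromosome 9, where 9 members lie between 7272514 and 7699416, around the left-out Mmp8. In this cluster 4 members were listed at 0, and 4 passed the filter: Mmp7, Mmp12, Mmp13 and Mmp27. Rows of zeros can also arise in the counting, since Cldn5 and H2-K1, genes that endothelial cells use, were listed at 0 too.

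Neither tool called a TIMP. Timp3, whose protein stays bound to the matrix and blocks MMPs as well as several ADAMTS proteases, was at 1530, 1592 and 1543 CPM in wild type 1, 3 and 4. It was at 1553, 1930 and 1419 CPM in NICeCA 1, 2 and 3. The wild type libraries lay close together inside the NICeCA range, and the log2 fold change was 0.07 ± 0.17 (SE). Timp3 lies within the span of Syn3, on the other strand, and 1733 of its exonic bases overlap exons of Syn3. Timp3 had between 71.9 and 136.3 counts per count of Syn3.

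Timp2, an inhibitor that also helps Mmp14 to activate Mmp2 at the cell surface, was at 70.6, 336.6 and 112.5 CPM in wild type 1, 3 and 4. It was at 78.5, 80.6 and 173.6 CPM in NICeCA 1, 2 and 3. Wild type 3 stood 1.94 times above the next library, and the groups overlapped. The log2 fold change of -0.64 ± 0.60 turned to 0.27 without wild type 3. Mmp2, the gelatinase that Timp2 and Mmp14 act on, was also highest in wild type 3, at 9.08 CPM against 4.63 and 3.53 CPM in wild type 1 and 4. Mmp2 was at 4.16, 5.30 and 4.92 CPM in NICeCA 1, 2 and 3, within the wild type range, with a log2 fold change of -0.26 ± 0.36 that turned to 0.23 without wild type 3. Of the cell type marker sums, none was highest in wild type 3, and the neutrophil sum was lowest there. The stellate cell and fibroblast sum was 1512 CPM in wild type 3, below only the 1743 CPM of wild type 4. The part of RNA from other cells in the Timp2 and Mmp2 values was not tested.

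Timp1, the inhibitor that injury and inflammation induce, was low, at 1.52, 0.537 and 1.01 CPM in wild type 1, 3 and 4. It was at 2.15, 1.79 and 5.98 CPM in NICeCA 1, 2 and 3, all above the wild type libraries. Its log2 fold change was 1.69 ± 0.59, with an unadjusted p of 0.0236 and an adjusted p of 0.239 by edgeR, and DESeq2 did not call it (adjusted p = 0.0772). NICeCA 3, which held the most neutrophil marker RNA, stood 2.79 times above the next library. This library also held the highest hepatocyte, cholangiocyte, smooth muscle, and T and NK cell marker sums. Within each group, the order of libraries by Timp1 was not that by the neutrophil sum. DESeq2 called Timp1 without wild type 1 (adjusted p = 0.0387), and without NICeCA 3 its adjusted p was 0.606 and the edgeR log2 fold change 0.94. The part of RNA from neutrophils or other cells in the Timp1 difference was not tested. Timp4 had 1 count in each wild type library and 0, 0 and 6 counts in NICeCA 1, 2 and 3, that is 0.035, 0.038 and 0.036 CPM and then 0, 0 and 0.199 CPM, too few to compare.

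Among the membrane-bound MMPs, Mmp24 was lower in NICeCA by DESeq2 and Mmp25 was higher in each NICeCA library without a call. Mmp24, a transmembrane protease first known from the nervous system, was at 10.2, 11.5 and 11.5 CPM in wild type 1, 3 and 4. It was at 6.77, 5.07 and 5.45 CPM in NICeCA 1, 2 and 3, so the groups were far apart compared with their spread. The log2 fold change was -0.95 ± 0.17, an adjusted p of 0.124 by edgeR and 4.79e-04 by DESeq2. DESeq2 called it in each of 6 fits that left out 1 library, with adjusted p from 3.90e-05 to 0.0144. Mmp24, chr2:155775344-155818366 on the plus strand, meets BC029722 at its 3′ end. There 637 exonic bases are shared with this protein-coding gene on the other strand, 13.6% of the exonic bases of Mmp24 and 39.4% of those of BC029722, per GENCODE M21.

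BC029722 had more counts than Mmp24 and moved with it. It was at 24.9, 31.2 and 29.8 CPM in wild type 1, 3 and 4 and at 18.9, 13.3 and 14.3 CPM in NICeCA 1, 2 and 3. On the log2 scale the difference was -0.88 ± 0.17 (adjusted p = 0.139 by edgeR and 0.00123 by DESeq2). The ratio of BC029722 to Mmp24 counts stayed between 2.43 and 2.80 in the 6 libraries. Whether counting used strand is not stated in the labels or the table, so reads of the pair cannot be told apart over the shared bases.

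Mmp25, a protease anchored in the membrane by a lipid and known in humans as the leukolysin of neutrophils, was at 5.76, 1.57 and 16.2 CPM in wild type 1, 3 and 4. It was at 22.5, 32.6 and 85.7 CPM in NICeCA 1, 2 and 3. All NICeCA libraries lay above the wild type libraries, with a log2 fold change of 2.58 ± 0.84 (unadjusted p = 0.0179, adjusted p = 0.223 by edgeR and 0.115 by DESeq2). The order of the 6 libraries by Mmp25 was that by the summed neutrophil markers and by Mmp9, which is itself among these markers. Of the 19795 tested genes, 462 had this order. The groups did not overlap in 6 of the 10 neutrophil markers, and the other markers cannot have this order. The ratio of Mmp9 to Mmp25 counts was 10.4 to 16.6, a narrow range beside the spread of Mmp25 itself. The part of neutrophil RNA in the Mmp25 difference was not tested. DESeq2 called Mmp25 without wild type 3 (adjusted p = 0.0339) and without wild type 4 (0.00446), and without NICeCA 3 its adjusted p was 0.575. The edgeR log2 fold change was 3.67 without wild type 4 and 1.81 without NICeCA 3.

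**Figure D3:**
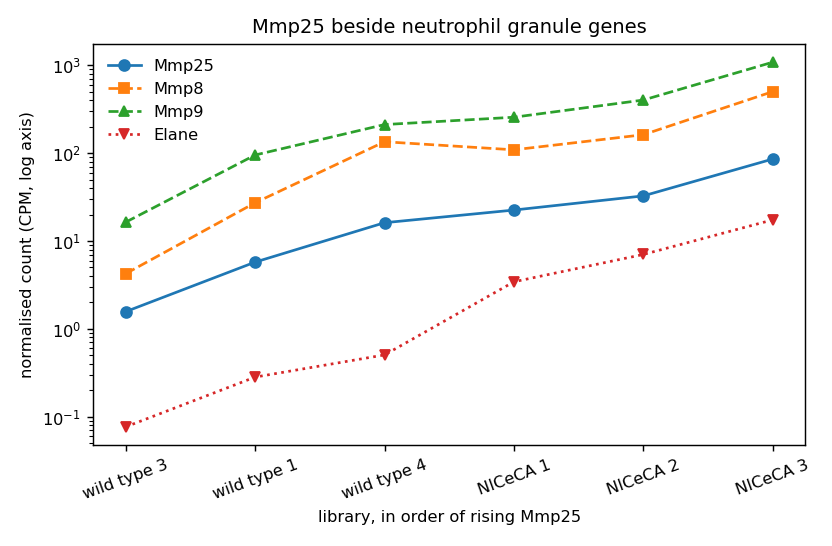
Normalised counts on a log axis are plotted by library, in order of rising Mmp25, for Mmp25 and for the neutrophil genes Mmp8, Mmp9 and Elane. Mmp25 runs from 1.57 CPM in wild type 3 to 85.7 CPM in NICeCA 3, and Mmp9 follows the same order.

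Mmp14, the membrane protease that cuts fibrillar collagen and activates Mmp2, was the MMP with the highest level per length. It was at 239.3, 344.0 and 312.3 CPM in wild type 1, 3 and 4 and at 258.5, 211.4 and 173.9 CPM in NICeCA 1, 2 and 3. NICeCA 1 lay above wild type 1, so the groups overlapped. The log2 fold change was -0.48 ± 0.19, with an unadjusted p of 0.0431 and adjusted p of 0.291 by edgeR and 0.215 by DESeq2. Of 8 sinusoidal markers all had negative log2 fold changes, with a median of -0.54, and their part in the Mmp14 value was not tested.

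Mmp15, a transmembrane relative of Mmp14, was at 16.0, 21.9 and 39.8 CPM in wild type 1, 3 and 4 and at 25.6, 25.5 and 41.8 CPM in NICeCA 1, 2 and 3. Wild type 4 and NICeCA 3 were its highest libraries and also those with the highest sums of 5 cholangiocyte markers, 724.4 and 816.4 CPM against 106.5 to 367.7 CPM elsewhere. Hepatocyte marker sums were highest there too, at 953.0 and 1254 CPM against 491.2 to 733.1 CPM. The part of such RNA in the Mmp15 values was not tested. The lipid-anchored Mmp17 and the transmembrane Mmp23 had log2 fold changes of 0.44 ± 0.28 and 0.53 ± 0.27. Neither was called by either tool, although the groups did not overlap in either gene.

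Of the secreted MMPs, Mmp28 was lower in NICeCA by DESeq2, and no other was called by either tool. Mmp28, called epilysin and known from epithelia and macrophages, was at 12.7, 20.6 and 25.2 CPM in wild type 1, 3 and 4. It was at 8.29, 11.3 and 8.80 CPM in NICeCA 1, 2 and 3, below each wild type library. The log2 fold change was -1.05 ± 0.27, with adjusted p of 0.184 by edgeR and 0.0141 by DESeq2. The DESeq2 call was lost without wild type 3 (0.121), wild type 4 (0.0962), NICeCA 1 (0.0833) or NICeCA 3 (0.128). Mmp28 shares 466 exonic bases with 1700020L24Rik on the other strand, which had 0.257 to 0.875 counts per count of Mmp28 and a log2 fold change of -0.75 ± 0.40.

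Mmp7, the matrilysin of glandular and ductal epithelia, was at 0.565, 1.80 and 25.2 CPM in wild type 1, 3 and 4 and at 2.48, 3.11 and 12.2 CPM in NICeCA 1, 2 and 3. Wild type 4 stood 2.07 times above the next library, and the log2 fold change of -0.63 ± 1.27 turned to 2.32 without wild type 4. DESeq2 gave no p for Mmp7. Its 2 highest libraries were those with the highest cholangiocyte and the highest hepatocyte marker sums. The antisense gene AV064505, which shares 123 exonic bases with Mmp7, had 140 counts in wild type 4 and 80 in NICeCA 3 against 5 to 23 elsewhere. Mmp27, from the same cluster, was also highest in wild type 4, with 88 counts there against 4 and 2 in wild type 1 and 3. NICeCA 1, 2 and 3 had 62, 29 and 19 counts. The libraries with most Mmp27, wild type 4 and NICeCA 1, were those with the highest sums of Kupffer cell and macrophage markers. Whether RNA of other cells contributed to the Mmp7 and Mmp27 values was not tested. DESeq2 called Mmp27 higher only in the fit without wild type 4. Mmp19, which cuts basement membrane proteins, was at 12.7, 15.3 and 17.8 CPM in wild type 1, 3 and 4 and at 13.7, 12.4 and 10.5 CPM in NICeCA 1, 2 and 3, with a log2 fold change of -0.32 ± 0.17. Exons of Mmp19 share 789 bases with Tmem198b on the other strand, 22.3% of the exonic bases of Mmp19. Tmem198b had 1007 to 1493 counts per library against 316 to 493 for Mmp19. As the use of strand is not stated, reads of this pair cannot be told apart over the shared bases. Mmp11, Mmp12, Mmp13 and Mmp21 averaged under 1 RPKM, and neither tool called them.

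ADAMTS proteases that cut proteoglycans such as versican and aggrecan held the most abundant protease of the family and no call. Adamts1, chr16:85793827-85803115, a versicanase with antiangiogenic activity, was at 2077, 1483 and 1613 CPM in wild type 1, 3 and 4. It was at 1737, 1456 and 1557 CPM in NICeCA 1, 2 and 3. Its groups overlapped, and the log2 fold change of -0.12 ± 0.19 was 0.026 without wild type 1. Adamts5, the second aggrecanase, lies 55041 bases from Adamts1 on the same strand and was far lower per length, at 1.13 ± 0.233 RPKM in wild type and 1.38 ± 0.153 RPKM in NICeCA. It was at 8.69, 12.5 and 10.2 CPM in wild type 1, 3 and 4 and at 12.1, 10.9 and 13.2 CPM in NICeCA 1, 2 and 3, with overlapping groups.

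Adamts4, the aggrecanase that inflammation induces in other tissues, was at 90.9, 39.4 and 37.8 CPM in wild type 1, 3 and 4 and at 58.2, 48.0 and 54.4 CPM in NICeCA 1, 2 and 3. Wild type 1 was thus the highest library for both Adamts1 and Adamts4. The other wild type libraries lay below all NICeCA libraries for Adamts4, whose log2 fold change of -0.066 ± 0.34 turned to 0.46 without wild type 1. In that fit DESeq2 called it and edgeR did not. Adamts9, a protease of versican, was at 33.1, 38.6 and 40.3 CPM in wild type 1, 3 and 4 and at 45.2, 40.8 and 47.5 CPM in NICeCA 1, 2 and 3. Exons of A730049H05Rik on the other strand share 1381 bases with Adamts9. The Adamts9 groups did not overlap but came close, and the log2 fold change of 0.25 ± 0.12 was not called (adjusted p = 0.339 by edgeR). Adamts15 was at 4.45, 6.52 and 15.3 CPM in wild type 1, 3 and 4 and at 7.10, 3.61 and 8.67 CPM in NICeCA 1, 2 and 3, with wild type 4 at 1.76 times the next library.

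**Figure D4:**
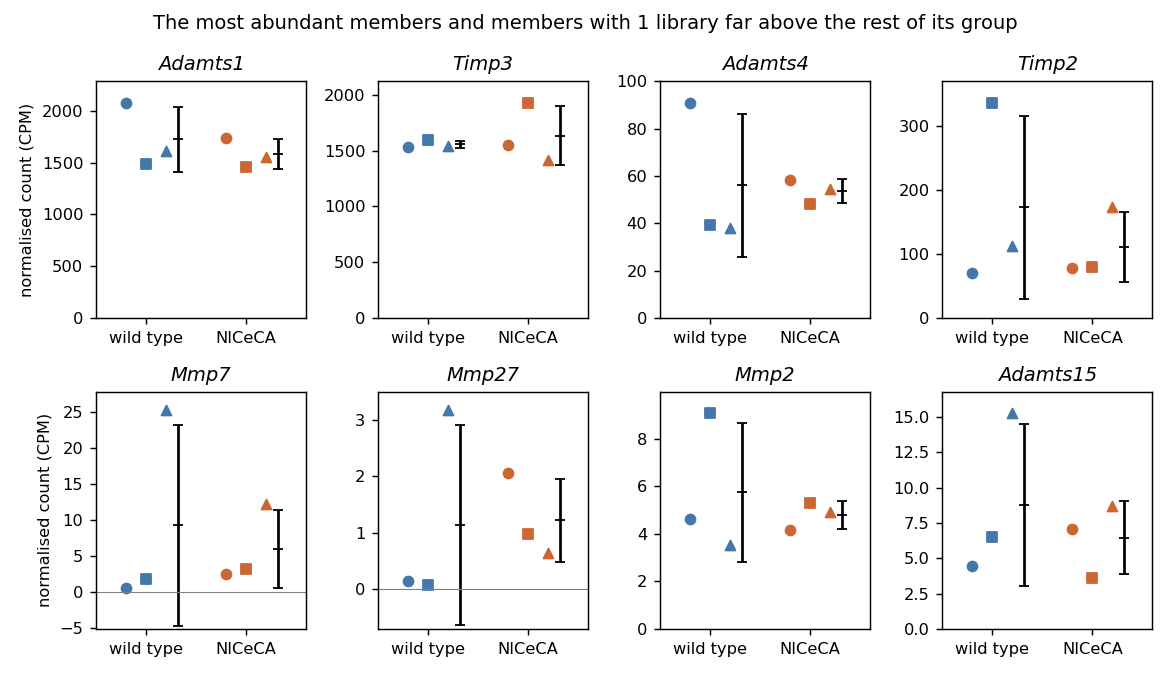
Normalised counts (CPM) per library, with mean and SD of each group (n = 3), are plotted for the 2 most abundant members and for 6 members in which 1 library stood apart. Circles, squares and triangles are libraries 1, 3 and 4 of wild type (blue) and 1, 2 and 3 of NICeCA (orange): Timp2 and Mmp2 are highest in wild type 3, Adamts4 in wild type 1, and Mmp7, Mmp27 and Adamts15 in wild type 4.

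The procollagen N-proteinases, which trim the ends of fibrillar procollagens, were low and none was called. Adamts2 was at 7.49, 16.4 and 12.9 CPM in wild type 1, 3 and 4 and at 9.41, 10.2 and 9.70 CPM in NICeCA 1, 2 and 3. Adamts14 was at 9.89, 8.89 and 8.91 CPM in wild type and at 9.44, 11.8 and 13.1 CPM in NICeCA, with a log2 fold change of 0.31 ± 0.17. Both overlapped between the groups. Adamts3, which in mice also takes part in activating the lymphatic growth factor Vegfc, had 18 to 69 counts per library.

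Of the remaining ADAMTS proteases, Adamts6 had the smallest p. Adamts6, a relative of Adamts10 with a role in heart development in mice, was at 3.60, 4.25 and 4.91 CPM in wild type 1, 3 and 4 and at 6.34, 7.20 and 6.71 CPM in NICeCA 1, 2 and 3. Each NICeCA library lay above the wild type libraries, and the log2 fold change was 0.67 ± 0.19 (unadjusted p = 0.0103). It was not called by edgeR (adjusted p = 0.203) or by DESeq2 (0.0577), except by DESeq2 without wild type 4. Adamts10, a protein of fibrillin microfibrils, was at 70.4, 82.6 and 75.7 CPM in wild type 1, 3 and 4 and at 98.8, 81.3 and 79.4 CPM in NICeCA 1, 2 and 3. Adamts7, which cuts the cartilage protein COMP, was at 91.5, 122.2 and 120.6 CPM in wild type and at 109.1, 110.6 and 78.3 CPM in NICeCA. Adamts13, the protease of von Willebrand factor made in the liver chiefly by stellate cells, was at 10.3, 18.4 and 15.7 CPM in wild type and at 15.4, 11.5 and 9.83 CPM in NICeCA. In Adamts10, Adamts7 and Adamts13 the groups overlapped, and log2 fold changes were 0.18 ± 0.12, -0.17 ± 0.18 and -0.27 ± 0.26. Adamts12, Adamts16 and Adamts17 averaged under 1 RPKM without a call.

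Among the ADAMTS-like genes, DESeq2 called Adamtsl2 lower and no other. Adamtsl2, which binds fibrillin-1 and acts on the store of latent TGF-beta in the matrix, was at 9.85, 21.3 and 27.5 CPM in wild type 1, 3 and 4. It was at 10.2, 7.70 and 3.29 CPM in NICeCA 1, 2 and 3. NICeCA 1 lay just above wild type 1, so the groups overlapped. The log2 fold change was -1.46 ± 0.49, with adjusted p of 0.230 by edgeR and 0.0383 by DESeq2. The DESeq2 call was lost without wild type 3 (0.229), wild type 4 (0.244), NICeCA 2 (0.141) or NICeCA 3 (0.206). Adamtsl2 lies 69713 bases downstream of Adamts13 on chromosome 2.

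Stellate cell and fibroblast markers moved in part with Adamtsl2 and Mmp28. Their sum over 12 genes was 1123, 1512 and 1743 CPM in wild type 1, 3 and 4 and 1152, 1059 and 1052 CPM in NICeCA 1, 2 and 3. In the wild type group this sum had the same order of libraries as Adamtsl2 and Mmp28. The sinusoidal, Kupffer cell and macrophage, hepatocyte and cholangiocyte sums had that wild type order too. In NICeCA the order of Adamtsl2 was again that of the stellate cell and fibroblast sum, and the order of Mmp28 was not. This NICeCA order was also that of the endothelial, sinusoidal, and Kupffer cell and macrophage sums. Of the 12 stellate cell and fibroblast markers DESeq2 called 6, 4 lower, among them Lrat, and 2 higher, among them Col1a1. Their part in the lower Adamtsl2 and Mmp28 values was not tested.

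**Figure D5:**
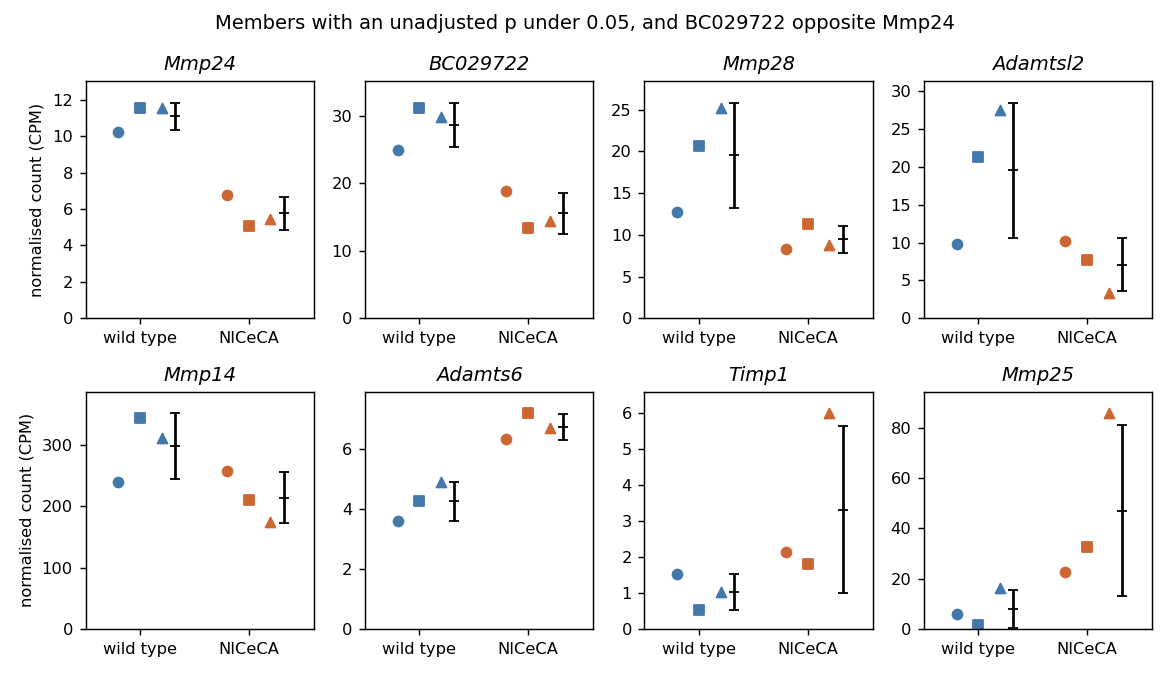
Normalised counts (CPM) per library, with mean and SD of each group (n = 3), are plotted for the 7 members with an unadjusted edgeR p under 0.05 and for BC029722, which overlaps Mmp24. Circles, squares and triangles are libraries 1, 3 and 4 of wild type (blue) and 1, 2 and 3 of NICeCA (orange). The groups do not overlap in Mmp24, BC029722, Mmp28, Adamts6, Timp1 and Mmp25, and they do in Adamtsl2 and Mmp14.

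The row named Adamtsl4 was at 29.4, 29.6 and 45.3 CPM in wild type 1, 3 and 4 and at 31.6, 29.1 and 45.6 CPM in NICeCA 1, 2 and 3. As with Mmp15, wild type 4 and NICeCA 3 were highest, and the groups overlapped. The position of this row, chr3:95676201-95688444, is that of Adamtsl4 in RefSeq, while its deposited description and gene number are those of Thsd4, which has a row of its own. Adamtsl1, Adamtsl3 and Adamtsl5 averaged under 1 RPKM and were not called.

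Of genes that work with these proteases DESeq2 called several, and edgeR called 0. Of 23 activators and other inhibitors, 21 were tested. DESeq2 called 4 of them higher and 2 lower, which is 28.6% against 5.59% of all tested genes. Plat, the tissue plasminogen activator, averaged 3.28 ± 1.08 CPM in the wild type group against 9.69 ± 3.10 CPM with NICeCA (log2 fold change 1.56 ± 0.35). Plaur, the urokinase receptor that leukocytes also carry, averaged 33.6 ± 18.0 and 105.8 ± 60.8 CPM. The proprotein convertase Pcsk5 stood at 1.22 ± 0.29 and the plasminogen activator inhibitor Serpine2 at 1.34 ± 0.34 on the log2 scale. Both were low: Pcsk5 averaged 1.48 ± 0.223 and 3.45 ± 0.893 CPM, and Serpine2 0.694 ± 0.199 and 1.77 ± 0.319 CPM. The broad protease inhibitor A2m was at -2.38 ± 0.49, on averages of 1.64 ± 0.700 and 0.312 ± 0.0984 CPM, and Papln, a secreted relative of the ADAMTS proteins, at -0.43 ± 0.11.

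Among the 13 tested of 15 substrates DESeq2 called 3 (23.1%, against 5.59% of all tested genes), all higher, and edgeR called 0. Fbn1, the main fibrillin, averaged 50.04 ± 9.12 CPM in the wild type group against 101.9 ± 25.5 CPM with NICeCA, a log2 fold change of 1.03 ± 0.21. Thbs1, the matrix protein thrombospondin 1, averaged 27.6 ± 22.3 and 407.2 ± 313 CPM, with a log2 fold change of 3.88 ± 0.76 and NICeCA 3 at 768.9 CPM. Fbn2, a second fibrillin, was at most at 1.08 CPM in any library. Among the 11 tested of 12 ADAM proteases, the membrane-anchored relatives of the ADAMTS family, neither tool called a gene. Unadjusted edgeR p-values were under 0.05 for 8 of the 21 activators and inhibitors (38.1%), 3 of the 11 ADAM proteases (27.3%) and 5 of the 13 substrates (38.5%). The share over all tested genes was 16.5%. These lists were chosen with earlier results of these data known, and neutrophil marker RNA was higher in the same NICeCA libraries.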

How the data were processed

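Total RNA of 6 libraries was sequenced as paired reads on a HiSeq 3000, per the labels' protocols. The authors deposited 1 table that holds raw counts and RPKM for each gene and library. No source used here names the aligner, the counter, the build or whether strand was used. The deposited RPKM values equal counts divided by the deposited gene length and the library total, to within a relative difference of 5.0e-06 where the count was at least 50. All 49 member symbols were found in RefSeq GRCm38.p6 on the same chromosome with overlapping spans, 38 with both ends within 1000 bases. Coordinates of genes are those of the table, and exonic overlaps come from GENCODE M21 (GRCm38).

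Counts were tested with edgeR 4.0.16 in R 4.3.3: filterByExpr at a minimum count of 10 (19795 genes kept), TMM scaling, glmQLFit and glmQLFTest, and Benjamini-Hochberg adjustment over all tested genes. Standard errors were obtained from the log2 fold change and its F statistic. DESeq2 1.42.0 on the same genes was the second tool, and limma 3.58.1 (voom) a further alternative. Per-library values are given for members with an unadjusted p under 0.05, with a mean of at least 5 CPM in either group, or in the TIMP family. For the other lists, genes called by either tool are named, at most 6 a list. Mmp17, Mmp23, Mmp27, Adamts3, Adamts8 and the overlapping genes were named after their values were seen. The members and lists were chosen with earlier results of these data known. Both tools were also run on simulated counts with known changes, and the outcome is not given here.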

Additional observations from a re-analysis of the deposited data

How the results depend on the processing

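The count of members called by edgeR was 0 with DESeq2's size factors, median-ratio scaling, no filter, a filter at a mean of 1 CPM, the robust prior, adjusted deviances, the replicate block and without any 1 library. It was 0 with voom, which called 5 of all tested genes, and 3 with DESeq2. Over all tested genes, edgeR called 0 without wild type 1, 3 or 4 or NICeCA 3. It called 1 without NICeCA 2 and 14 without NICeCA 1. Without 1 library DESeq2 called between 1 of 38 (without NICeCA 3) and 5 of 40 (without wild type 1) tested members, an alternative chosen after seeing the data. Over all tested genes, DESeq2 called 389 of 20104 without NICeCA 3 and 1454 of 20469 without wild type 1. The median log2 fold change of the members ranged from -0.050 to 0.21 without 1 library and was 0.23 with the replicate block. The titles share replicate numbers 1 and 3 between the groups, but the labels tie these numbers to no animal, litter or day. The correlations of the same-numbered libraries' deviations were weak, at -0.213 and -0.246, beside -0.2 to 0.204 for the other pairs, so pairing was neither assumed nor shown to be absent. In the block, wild type 4 and NICeCA 2 share their number with no other library. Its genotype estimates therefore rest on libraries 1 and 3 of each group. With the block edgeR called 0 of all genes, with 1596 at an unadjusted p under 0.05, against 9 without it, and 111 genes were called with no filter. Under the block Timp3 was at -0.073, Mmp7 at 2.48 and Adamts15 at 0.54, and with voom Adamts4 was at 0.054 and Mmp7 at 0.61, each of opposite sign to the edgeR value. Mmp7 (2.32) and Adamts15 (0.23) were also positive by edgeR without wild type 4. Without 1 library, values that changed sign ranged from -0.069 to 0.16 for Timp3, -0.22 to 0.026 for Adamts1, -1.12 to 0.27 for Timp2, -0.29 to 0.46 for Adamts4 and -1.72 to 2.32 for Mmp7. They ranged from -0.20 to 0.26 for Adamtsl4, -0.020 to 0.70 for Mmp15, -0.52 to 0.23 for Mmp2 and -0.76 to 0.23 for Adamts15. The cause was not tested. Among the 13 tested members under 1 RPKM, standard errors reached 1.19 on the log2 scale (Mmp27).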
